A study of Mus musculus with 4 samples.

Results

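The immediate early genes described here are 10 genes, Fos, Fosb, Jun, Junb, Jund, Egr1, Ier2, Ier3, Dusp1 and Zfp36, chosen by symbol from a table of 23444 genes. All 10 were found, and all 10 passed the filter on low values (at least 1 RPKM in at least 2 libraries), which kept 10128 genes. The table comes from RNA sequencing of EpCAM-positive cells, EpCAM being a surface protein of epithelial cells, taken by sorting from lungs of E18.5 mouse embryos. The groups are embryos with Emc3 conditionally deleted from the lung epithelium as it develops (KO, 2 libraries) and control embryos (WT, 2 libraries). The sample titles call the second group wild-type, and the column headings call it control. Emc3 encodes a core subunit of the endoplasmic reticulum membrane protein complex, which inserts many membrane proteins. The Cre driver, the strain, the litters and the number of embryos behind a library are given in none of these sources, so a p-value reflects the spread among these 4 libraries alone. Values are the authors' RPKM (reads scaled by gene length and by the mapped reads of the library). A value after ± is the SD of the 2 libraries of a group.

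Immediate early genes are switched on within minutes of a stimulus, from factors already present in the cell, and most of their mRNAs are short-lived. Growth factors, stress and handling of tissue act through MAP kinases on SRF, its ETS partners and CREB, which bind the promoters of these genes. Their products include the FOS and JUN proteins, which pair to form the transcription factor AP-1, and inhibitors that end the response, such as the phosphatase DUSP1, which inactivates MAP kinases, and ZFP36 (tristetraprolin), which promotes the decay of mRNAs with AU-rich elements. In single-cell and bulk studies the same genes are also known to be switched on while tissue is dissociated and sorted.

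The names KO 27, KO 35, WT 27 and WT 35 combine the group in a column heading with the first number after it, whose meaning is not stated. The headings say mutant and control, written here as KO and WT. The sample titles disagree with the headings for 2 of the 4 libraries: by title KO 27 is wild-type and WT 35 is a knockout, so the titles set both 35 libraries against both 27 libraries. Emc3 measured 2.28 (KO 27) and 2.33 RPKM (KO 35) against 14.2 (WT 27) and 18.0 RPKM (WT 35), and all KO and WT groups below follow the headings. Between 9815 and 9964 genes per library reached 1 RPKM. From the most common ratio to KO 27 among the lowest RPKM, relative depths differed by at most a ratio of 1.10. Large ratios in either direction were left out of that search, so a large difference in depth could not have shown. Absolute depth is unknown. Epithelial markers were present in every library, for example Epcam at 52.9 (KO 27) and 53.9 RPKM (KO 35) against 35.2 (WT 27) and 46.2 RPKM (WT 35). Among the 6 epithelial markers the log2 difference, KO minus WT, was positive for 3 and negative for 3. In a bulk sample, fewer cells of a type and less RNA per cell cannot be told apart.

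Of the 10 genes, 8 have a promoter in RefSeq's table for GRCm38.p6, the build that the authors' mm10 names, and Egr1 and Ier2 have none there. The windows searched are the 250 bases before each start site in that table. Shown here are that of Dusp1, the gene with the largest difference between KO and WT, and that of Fos, which after Fosb differed most between the 35 and 27 libraries. The last 47 bases of the Dusp1 window lie in an exon of Dusp1 in GENCODE M21 and are left out, so 203 are shown. Capitals mark, on either strand, the cyclic AMP response element (CRE) TGACGTCA or its core TGACG, which also lies within the full CRE, and the TATA box TATAAA.
Dusp1, chr17:26508520-26508722, minus strand: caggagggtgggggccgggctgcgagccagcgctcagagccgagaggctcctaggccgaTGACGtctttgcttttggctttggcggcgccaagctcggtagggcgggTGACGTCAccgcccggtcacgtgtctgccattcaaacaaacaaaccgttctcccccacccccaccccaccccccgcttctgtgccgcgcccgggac
Fos, chr12:85473640-85473889, plus strand: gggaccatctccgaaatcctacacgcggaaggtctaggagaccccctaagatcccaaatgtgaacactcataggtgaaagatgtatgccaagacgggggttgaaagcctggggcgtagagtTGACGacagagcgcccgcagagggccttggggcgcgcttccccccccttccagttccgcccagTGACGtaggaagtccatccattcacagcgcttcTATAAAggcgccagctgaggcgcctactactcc
Dusp1 held a full CRE starting 143 bases before its start site, which 1.55% of all 32851 promoter windows of this length hold, and another CRE core 191 bases before it. Fos held CRE cores 129 and 66 bases before its start and the TATA box 33 bases before it. Fosb held a CRE core 60 bases before its start, and CRE cores were in 4 of the 8 promoters (Fosb, Junb, Fos and Dusp1), against 17.8% of all windows. The TATA box was in 1 of the 8, against 12.4% of all windows. A CArG box, which SRF binds, was found in 1 of the 8, Zfp36, 58 bases before its start, against 1.47% of all windows. The EGR site GCGGGGGCG was in Fosb and Zfp36, against 2.57% of all windows. The AP-1 site TGANTCA was in none of the 8, against 6.75% of all windows. All 250 bases of the Zfp36 window lie in the first exon of a longer GENCODE M21 transcript of Zfp36. The last 73 of the Fosb window lie within the Fosb gene as RefSeq gives it, and they hold its CRE core and its EGR site. These are matches of letters in a short window and do not show binding.

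None of the 10 genes passed the test between KO and WT (limma on log2(RPKM + 1), adjusted p under 0.05 over all 10128 genes), beside 7 genes, or 0.0691%, of all those tested. At an unadjusted p under 0.05 there was 1 of 10, Dusp1, where 8.17% of all tested genes were higher in KO and 5.68% lower. Both KO libraries lay above both WT libraries for 4 of 10 (Dusp1, Zfp36, Jun and Ier2), beside 30.0% of all genes, and below for 0 of 10, beside 16.3%. The median log2 difference of the 10 was 0.27, beside 0.06 for all tested genes, with 9 positive and 1 negative, where 59.2% of all tested genes were positive. The split was 5 positive and 5 negative without KO 35, 6 and 4 without WT 27, and 8 and 2 with quantile normalization, where Fosb turned negative. With 2 libraries a group, a difference that did not pass is not shown to be absent.

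**Figure D1:**
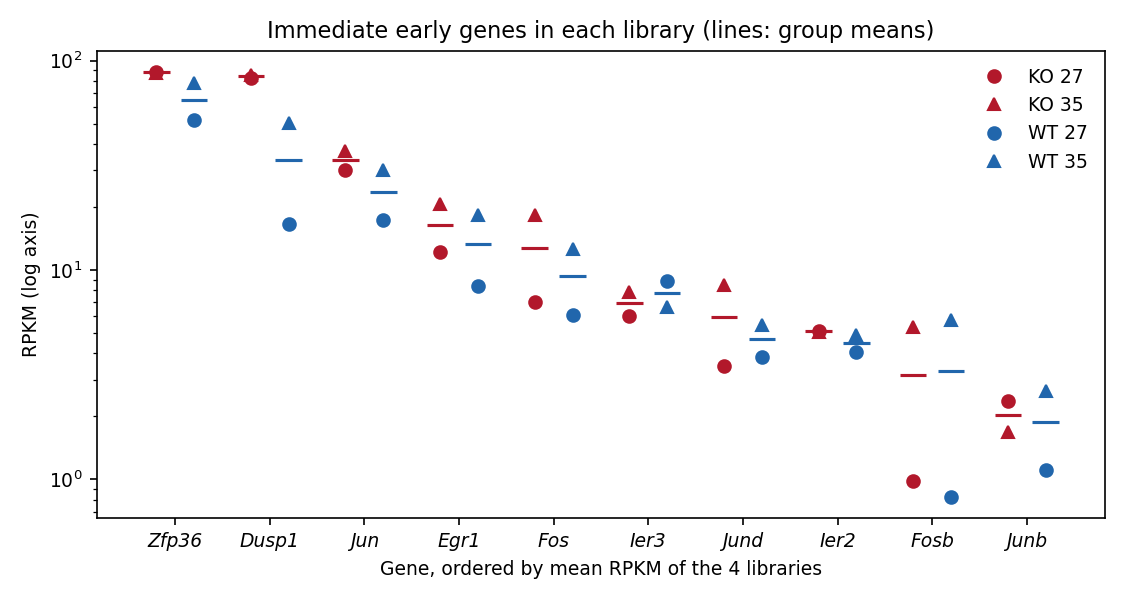
RPKM of the 10 immediate early genes on a log axis, with KO left of WT for each gene, circles for the 27 libraries, triangles for the 35 libraries and lines at the group means. Dusp1 lies at 82.8 and 85.1 RPKM in KO and at 16.6 and 50.2 RPKM in WT, while for Fosb both triangles lie above 5 RPKM and both circles below 1 RPKM.

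By level the genes spanned from Zfp36, with a mean of 76.4 RPKM over the 4 libraries, to Junb, with 1.95 RPKM. The order was Zfp36, Dusp1, Jun, Egr1, Fos, Ier3, Jund, Ier2, Fosb and Junb. Zfp36 exceeded Dusp1, Jun exceeded Egr1 and Egr1 exceeded Fos in 4 of 4 libraries each. Dusp1 exceeded Jun, Fos exceeded Ier3 and Ier3 exceeded Jund in 3 of 4. Jund and Ier2, Ier2 and Fosb, and Fosb and Junb each split 2 libraries to 2, so these neighbours did not differ beyond their spread. Junb, Jund and Ier2, which GENCODE M21 lists with a single exon, had the highest GC content of the 10 transcripts (62.6%, 67.1% and 60.9%) and ranked among the 4 lowest. Jun, also with a single exon, has a GC content of 55.5% and ranked 3 of 10. The antisense genes Junos and Gm11175 overlap the exons of Jun and Jund, and since the library kit does not mark strand, their reads cannot be told apart.

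Dusp1 (chromosome 17, 26505591 to 26508472, GRCm38.p6), the feedback phosphatase of MAP kinases, measured 82.8 (KO 27) and 85.1 RPKM (KO 35) against 16.6 (WT 27) and 50.2 RPKM (WT 35). The KO libraries lay close together and above both WT libraries, and the WT libraries lay far apart. Its mean was 83.9 ± 1.66 RPKM in KO and 33.4 ± 23.8 in WT, a ratio of 2.51, and its log2 difference was 1.501 (SE 0.48, limma adjusted p = 0.279). The difference was 2.25 between the 27 libraries and 0.75 between the 35 libraries. Without WT 35 it was 2.27 and passed (adjusted p = 0.0176), and without WT 27 it was 0.73 and did not (adjusted p = 0.117). In the remaining settings with KO and WT as headed the adjusted p lay between 0.194 and 0.725.

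Zfp36 (chromosome 7, 28376784 to 28379228), the mRNA decay factor, measured 88.1 (KO 27) and 87.6 RPKM (KO 35) against 52.1 (WT 27) and 77.7 RPKM (WT 35). As for Dusp1, the KO libraries agreed closely and WT 27 was the low library. The log2 difference was 0.46 (SE 0.21, limma adjusted p = 0.425), with 0.75 between the 27 libraries and 0.17 between the 35 libraries. It was 0.18 without WT 27 and 0.74 without WT 35. Its paralogue Zfp36l1 measured 30.6 (KO 27) and 37.0 RPKM (KO 35) against 25.4 (WT 27) and 29.5 RPKM (WT 35) (log2 difference 0.29, adjusted p = 0.511).

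Among the JUN genes, Jun (chromosome 4, 95049036 to 95052222), whose protein is the main partner of FOS in AP-1, had the highest level. It measured 30.2 (KO 27) and 36.9 RPKM (KO 35) against 17.4 (WT 27) and 30.0 RPKM (WT 35). The groups did not overlap, but KO 27 and WT 35 were nearly equal. The log2 difference was 0.53 (SE 0.27, limma adjusted p = 0.471), with 0.15 without WT 27 and 0.90 without WT 35. Junb, whose protein often acts against JUN, measured 2.37 (KO 27) and 1.68 RPKM (KO 35) against 1.11 (WT 27) and 2.63 RPKM (WT 35). Here the groups overlapped and the lowest and highest values were both WT. Jund, a JUN gene known for its steadier expression, measured 3.46 (KO 27) and 8.49 RPKM (KO 35) against 3.84 (WT 27) and 5.48 RPKM (WT 35). Its 35 libraries were higher than its 27 libraries in both groups. The log2 differences between KO and WT were 0.12 for Junb and 0.22 for Jund (limma adjusted p = 0.895 and 0.841).

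Fos (chromosome 12, 85473890 to 85477274) measured 7.07 (KO 27) and 18.3 RPKM (KO 35) against 6.09 (WT 27) and 12.6 RPKM (WT 35). Fosb (chromosome 7, 19302696 to 19310118), its paralogue, measured 0.987 (KO 27) and 5.35 RPKM (KO 35) against 0.829 (WT 27) and 5.74 RPKM (WT 35). For both genes the libraries separated by the number in the heading and not by group. The log2 difference between KO and WT was 0.35 (SE 0.48) for Fos and 0.02 (SE 0.76) for Fosb, with limma adjusted p of 0.802 and 0.996. Egr1 (chromosome 18, 34861207 to 34864956), a zinc finger transcription factor that binds GC-rich sites, measured 12.2 (KO 27) and 20.7 RPKM (KO 35) against 8.38 (WT 27) and 18.2 RPKM (WT 35). Its groups overlapped in the same way (log2 difference 0.33, SE 0.40, adjusted p = 0.767).

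The IER genes had the narrowest ranges, taken as the highest over the lowest library. Ier2, which encodes a nuclear protein, measured 5.14 (KO 27) and 5.07 RPKM (KO 35) against 4.07 (WT 27) and 4.89 RPKM (WT 35) (log2 difference 0.16, limma adjusted p = 0.690). The difference was 0.052 without WT 27 and 0.267 without WT 35. Ier3, which encodes a regulator of cell survival, measured 6.05 (KO 27) and 7.85 RPKM (KO 35) against 8.82 (WT 27) and 6.64 RPKM (WT 35). It was the 1 gene of the 10 with a negative log2 difference, -0.13 (adjusted p = 0.809), and its groups overlapped.

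The 35 libraries were also set against the 27 libraries, which is the grouping that the sample titles give. The separation of 4 genes by heading number had been seen before, so the values of this contrast describe that separation and do not support it. The 35 libraries, one KO and one WT, lay above the 27 libraries for 4 of 10 genes (Fosb, Fos, Egr1 and Jund), beside 18.1% of all tested genes. The log2 difference of 35 minus 27 was 1.78 for Fosb (SE 0.15, limma adjusted p = 0.112), 1.10 for Fos (SE 0.22, adjusted p = 0.998), 0.88 for Egr1 (SE 0.22, adjusted p = 0.998) and 0.76 for Jund (SE 0.23, adjusted p = 0.998). None passed over all genes, where 4 genes, or 0.0395%, did. The median difference of 35 minus 27 was 0.64 over the 10 genes and 0.03 over all tested genes. Within KO the log2 difference of KO 35 minus KO 27 was 1.68 for Fosb and 1.26 for Fos, and within WT that of WT 35 minus WT 27 was 1.88 and 0.94. Dusp1 went another way, with 0.04 between the KO libraries and 1.54 between the WT libraries. Summed over the 10 genes, RPKM was 238 (KO 27) and 277 (KO 35) against 119 (WT 27) and 214 (WT 35). Zfp36 and Dusp1, the genes with the highest levels, weigh most in these sums. WT 27 had the lowest sum and enters both contrasts, as a WT library and as a 27 library.

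**Figure D2:**
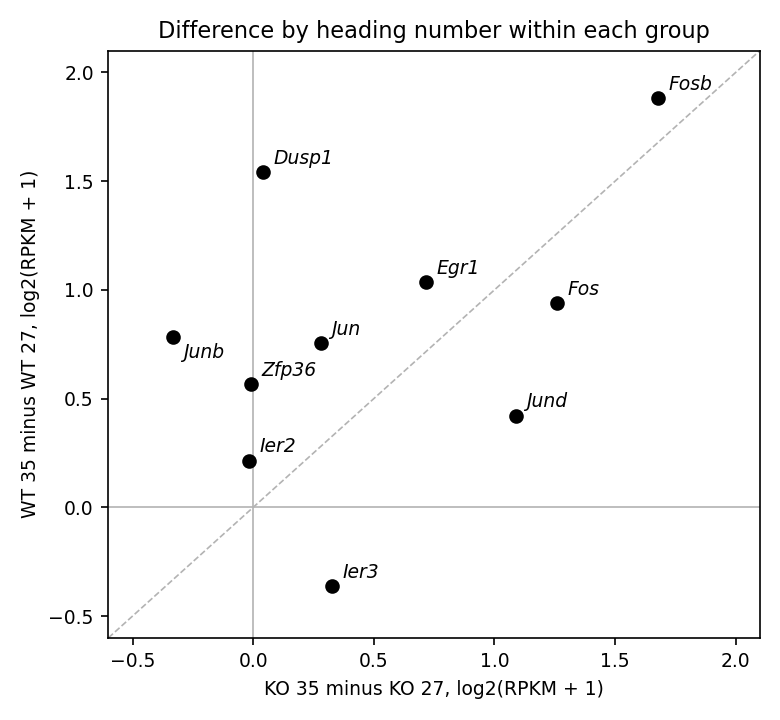
Log2(RPKM + 1) of the 35 library minus the 27 library in KO (horizontal) and in WT (vertical) for each of the 10 genes, with a dashed line where both are equal. Fosb, Fos, Egr1, Jund and Jun lie to the upper right, above 0 in both groups, though KO 27 of Jun slightly exceeds WT 35, while Dusp1 and Zfp36 lie near 0 in KO and above 0 in WT.

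Markers of other cell types were set beside these patterns. The 5 endothelial markers summed to 9.46 (KO 27) and 11.98 RPKM (KO 35) against 9.97 (WT 27) and 11.8 RPKM (WT 35). Over the 4 that were tested, the median log2 difference of 35 minus 27 was 0.215. None of them had an unadjusted limma p under 0.05 in that contrast. Of these 4, 3 lay higher in both 35 libraries than in both 27 libraries, beside 18.1% of all tested genes. The remaining tested marker overlapped. Pecam1, an endothelial adhesion protein gene and 1 of these 3, measured 1.88 (KO 27) and 2.16 RPKM (KO 35) against 1.99 (WT 27) and 2.34 RPKM (WT 35). The 6 erythroid markers, of which 2 were tested, summed to 1.80 (KO 27) and 3.78 RPKM (KO 35) against 2.60 (WT 27) and 5.34 RPKM (WT 35). The 7 immune markers separated by group in their sums, 15.7 (KO 27) and 14.7 RPKM (KO 35) against 5.97 (WT 27) and 4.78 RPKM (WT 35). Of the 7, 6 lay higher in both KO libraries than in both WT libraries. Only 4 of the 7 were tested, and all 4 lay so, beside 30.0% of all tested genes. Of the 4, 2 passed the filter only through their KO libraries, so they had to differ. Ptprc, which marks all white blood cells, measured 0.401 (KO 27) and 0.185 RPKM (KO 35) against 0.177 (WT 27) and 0.062 RPKM (WT 35). The 7 mesenchymal markers summed to 22.04 and 20.7 RPKM in KO and to 17.1 and 25.1 in WT. The part of these cells in the levels of the immediate early genes was not tested.

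The other genes of the pathway were listed by role, and none of the 73 tested genes of these 9 lists passed between KO and WT in limma. Dusp8 and Dusp10 passed the filter only through their KO libraries, so they had to differ. Of the other 71 genes, 20 were higher in KO at an unadjusted p under 0.05 and 2 lower, where 8.17% and 5.68% of all tested genes were. The lists were chosen with earlier results of these data known, so these counts describe the lists and do not test them. Most genes named below are those with the smallest p of their list. Among the other AP-1 genes, Atf3, a stress-induced partner of JUN, measured 4.44 (KO 27) and 9.62 RPKM (KO 35) against 0.562 (WT 27) and 1.92 RPKM (WT 35). All its KO values lay above its WT values (log2 difference 1.83, SE 0.42, limma adjusted p = 0.196). Batf, of the same family, measured 3.68 (KO 27) and 3.76 RPKM (KO 35) against 0.874 (WT 27) and 2.09 RPKM (WT 35) (log2 difference 0.97, adjusted p = 0.213). Of 9 such genes 5 were tested, with a median of 0.25, 4 positive and 1 negative. Fosl1 was listed at 0 in all 4 libraries.

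The other dual-specificity MAP kinase phosphatases, relatives of Dusp1, went both ways. Of 10 such genes 7 were tested, and without Dusp8 and Dusp10 the median log2 difference was 0.28, with 3 positive and 2 negative. Dusp16, which acts mainly on JNK and p38, measured 8.06 (KO 27) and 11.97 RPKM (KO 35) against 3.25 (WT 27) and 5.004 RPKM (WT 35) (log2 difference 1.10, limma adjusted p = 0.196). Dusp10, of like preference, was at 1.74 and 3.51 RPKM in KO and at 0.398 and 0.385 in WT, and Dusp8 at 1.81 and 4.05 in KO and at 0.0631 and 0.572 in WT. Dusp14 lay the other way, at 7.87 and 7.89 RPKM in KO and at 12.8 and 13.7 in WT (log2 difference -0.68, adjusted p = 0.176).

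Other immediate early transcription factors had a median log2 difference of 0.34 over 12 tested of 17, with 7 positive and 5 negative. Myc, which drives growth and proliferation, measured 2.82 (KO 27) and 7.77 RPKM (KO 35) against 0.718 (WT 27) and 1.15 RPKM (WT 35) (limma adjusted p = 0.205). The inhibitors of differentiation Id3 and Id1 were at 25.2 and 24.2 and at 14.5 and 12.6 RPKM in KO, against 14.4 and 17.1 and 9.06 and 9.31 in WT. Among 19 tested of 21 other early effectors the median was 0.40, with 15 positive and 4 negative. Tnfaip3, an inhibitor of NF-kappaB, was at 2.94 and 2.99 RPKM in KO and at 1.52 and 1.40 in WT (log2 difference 0.69, adjusted p = 0.180), and F3, which encodes tissue factor, at 18.2 and 35.5 in KO and at 10.9 and 6.08 in WT.

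The kinases and transcription factors upstream had a smaller median, 0.18 over 17 tested of 19 genes, with 13 positive and 4 negative. Map2k1, which encodes the kinase MEK1, measured 11.4 (KO 27) and 16.4 RPKM (KO 35) against 6.995 (WT 27) and 7.26 RPKM (WT 35) (log2 difference 0.85, limma adjusted p = 0.196). Elk4, an ETS partner of SRF, was at 9.55 and 11.5 RPKM in KO and at 7.28 and 6.74 in WT (adjusted p = 0.238). The EGR relatives and NAB co-repressors had 2 tested of 5 genes, with a median of 0.15. Ier5 was the 1 tested of the 2 other IER genes (0.02), and the ZFP36 paralogues had 2 tested of 3 (0.24). Heat shock genes, many of which are known to respond to cell dissociation too, summed to 426 (KO 27) and 463 RPKM (KO 35) against 396 (WT 27) and 388 RPKM (WT 35). Their median was 0.22 over 8 tested of 10, with 5 positive and 3 negative, and 0.04 for 35 minus 27. Hspa1a, among the most inducible of them, did not pass the filter and was not tested. It was at 0.241 and 0.325 RPKM in KO and at 0.243 and 0.766 in WT. Its paralogue Hspa1b, also not tested, was at 0.166 and 0.0791 RPKM in KO and at 0.116 and 0.187 in WT.

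**Figure D3:**
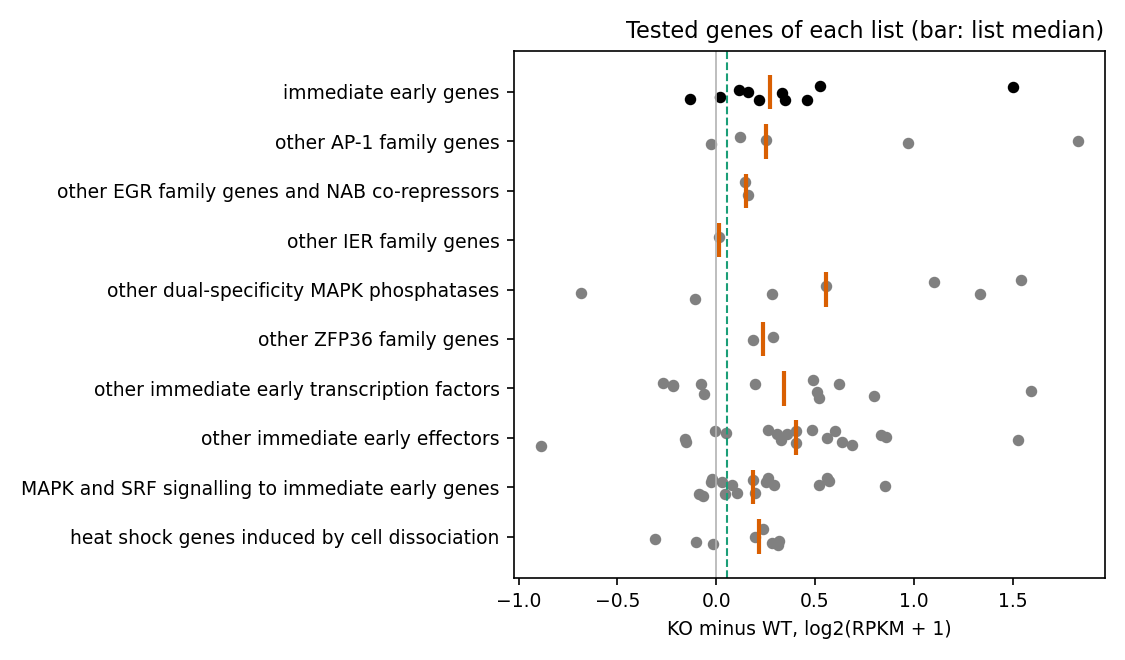
Log2 difference of log2(RPKM + 1), KO minus WT, for every tested gene of each list, with an orange bar at the list's median and a dashed line at the median of all tested genes. The 10 immediate early genes reach from -0.13 to 1.501 around a median of 0.27, and no gene shown passed the test. The median of the phosphatases includes Dusp8 and Dusp10.

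The authors' deposited table gives its own fold change and p-value for each gene, and these differ from its RPKM for part of the 10 genes. In the authors' deposited table Dusp1 has a fold change of 2.096 (p = 0.177), Fos 1.35 (p = 0.609) and Egr1 1.11 (p = 0.870), where the ratios of mean RPKM are 2.51, 1.36 and 1.24. For Jun, Junb, Jund, Ier2 and Zfp36, however, the authors' deposited table gives -1.36, -2.26, -1.17, -1.84 and -1.63, lower in the mutant, where the RPKM ratios of the same table are 1.42, 1.08, 1.28, 1.14 and 1.35, higher in KO. So the sign differs for 5 of the 10 genes, beside 31.4% of the 10078 tested genes with a finite fold change in the authors' deposited table.

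The gap between the authors' log2 fold change and the log2 ratio of RPKM followed the chromosome. On chromosomes 1 and 10 to 19 its median was -0.06 over 4531 genes, and 92.5% of these lay within 0.2 of 0. On chromosomes 3 to 9 and X its median was -1.04 over 4201 genes, and 0.262% lay within 0.2 of 0. There, 89.1% lay within 0.2 of the log2 ratio of KO 35 alone to the sum of WT 27 and WT 35, and 50.0% within 0.2 of that of KO 27 alone. The sign was opposite for 10.3% of the genes on chromosomes 1 and 10 to 19. It was opposite for 55.9% on chromosomes 3 to 9 and X, where Jun, Junb, Jund, Ier2 and Zfp36 lie. On chromosome 2 the change came between Xrn2, which starts at 147012755, and Foxa2, which starts at 148042877 (GRCm38.p6). Of 552 genes before it 3 had a gap below -0.5, and after it all 197 did. In a list of chromosomes sorted as text, chromosome 2 stands between 19 and 3. Fos, Egr1, Ier3 and Dusp1 lie on the chromosomes before the change, where their gaps were -0.01 to -0.26. The other 6 lie after it, on chromosomes 4, 7 and 8, and for these the authors' log2 fold change lay 0.02 to 0.14 below the log2 ratio of KO 35 alone to the WT sum. Fosb shows the difference most plainly: its KO libraries are 0.987 and 5.35 RPKM, and the gap to the authors' log2 fold change was -0.08 with KO 35 alone and 2.36 with KO 27 alone. What the authors' fold changes and p-values were computed from is not stated, and none of the tests above uses them.

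**Figure D4:**
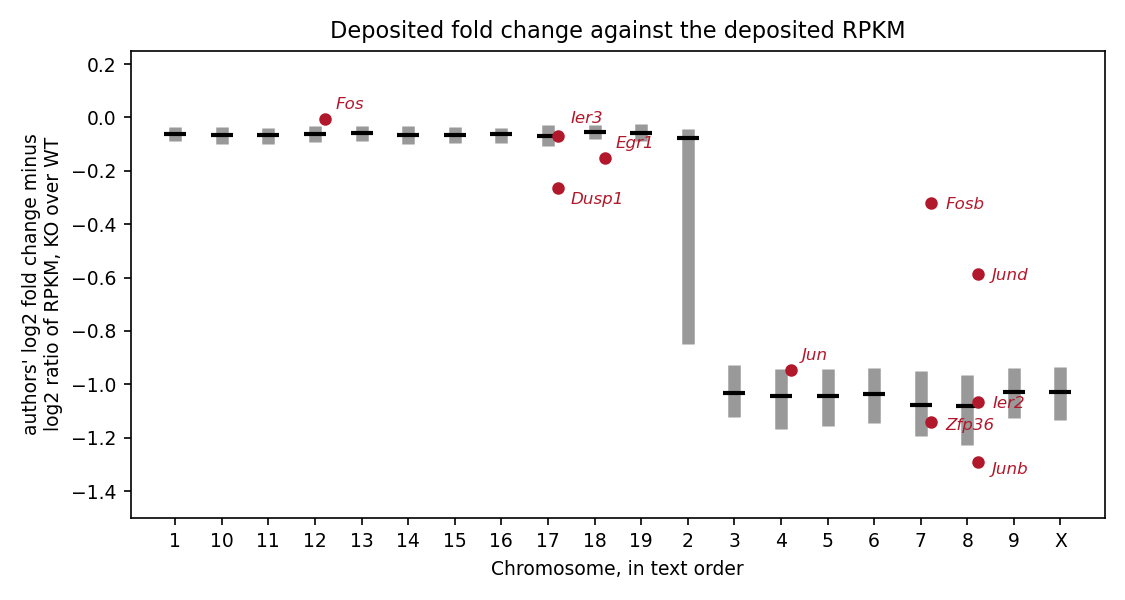
Authors' log2 fold change minus the log2 ratio of the deposited RPKM (KO over WT) by chromosome, sorted as text, with grey bars from the lower to the upper quartile of the tested genes, black marks at the medians and red points for the 10 immediate early genes. Medians lie near -0.06 up to chromosome 19 and near -1.04 from chromosome 3 on, and Fosb and Jund, whose KO 35 value lies far above KO 27, lie between.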

How the data were processed

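RNA sequencing of 2 KO and 2 WT libraries was used as 1 deposited table. RNA came from the RNeasy Micro kit and libraries from Nextera XT, per the labels' protocols. The tools Cufflinks 2.0.2, TopHat2 2.0.8, Bowtie2 2.1.0 and DESeq and the build mm10 are in the submitters' processing notes, with no roles. The authors deposited RPKM per library, not log transformed, per the file headers; the authors' filter on RPKM above 2 matched these columns for all 23444 genes. The authors' p-value and signed fold change (a score, the ratio or minus its inverse) are deposited per gene, per the file headers. Differences were tested with limma 3.58.1 (R 4.3.3) on log2(RPKM + 1) over 10128 genes, with a trend in the prior variance, genotype as the only term, two-sided p and Benjamini-Hochberg adjustment. Log2 differences understate changes of low genes. The code was tested on simulated data. Positions and promoters are from RefSeq (GRCm38.p6), transcripts from GENCODE M21, the longest protein-coding one per gene. The 10 members and the lists were chosen with earlier results of these data known. All 10 were named, with Emc3 and up to 4 genes of each other list, those with the smallest p, of which the text gives a selection. Fosl1, Ptprc, Epcam, Pecam1, Hspa1a, Hspa1b, Xrn2 and Foxa2 are named besides, after their values were seen. Settings are listed in the closing section. Figures used Python 3.11.15 with matplotlib 3.10.9.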

Additional observations from a re-analysis of the deposited data

Results flagged for a closer look

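For 4 genes KO lay above WT in the libraries of one heading number and below it in those of the other, with 1 library a group in each, so this difference was not tested. On the log2(RPKM + 1) scale the difference of KO minus WT in the 35 libraries less that in the 27 libraries was -0.21 for Fosb, -1.11 for Junb, 0.67 for Jund and 0.69 for Ier3. For Junb the 2 differences were -0.44 in the 35 libraries and 0.67 in the 27 libraries, and for Fosb -0.09 and 0.12.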

How the results depend on the processing

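The settings were quantile normalization, no trend in the prior variance, pseudocounts of 0.1 and 5, no filter or one of 10 RPKM, each library left out in turn (the lone library is assumed to vary like the other group), a replicate block by heading number and the groups of the titles; values within a heading number were added after the data were seen. Of the 10 genes, 1 passed in 1 of these settings, Dusp1 without WT 35. The median log2 difference of the 10 lay between 0.027 and 0.78 when 1 library was left out, the lowest without WT 27 and the highest without WT 35. The number of all genes called, 7 as reported, was 0 with no filter, 4 with a filter of 10 RPKM, with a pseudocount of 5 and with the groups of the titles, and between 8 and 43 with 1 library left out (43 without WT 27 and 28 without WT 35). With 1 library left out, the log2 difference lay between -0.28 (without KO 35) and 0.97 for Fos, -0.93 (without WT 27) and 0.96 for Fosb, -0.27 (without WT 27) and 0.51 for Junb, -0.33 (without KO 35) and 0.76 for Jund, -0.18 (without WT 27) and 0.85 for Egr1, and -0.31 (without WT 35) and 0.049 (without WT 27) for Ier3, so each of these directions rests on single libraries. Fosb was at -0.038 with quantile normalization and at -0.008 with a pseudocount of 5. Emc3 was at 0.17 with the groups of the titles, and its call was lost with no filter, with a filter of 10 RPKM and without either KO library (adjusted p from 0.0642 to 0.171). With 2 pairs and no label that gives the numbers a meaning, the heading numbers were not taken to pair the libraries. With the replicate block the number of all genes called was 9, and no immediate early gene passed. In that setting 2 of the 10 had an unadjusted limma p under 0.05 (Dusp1, adjusted p = 0.194, and Jun, adjusted p = 0.241), beside 1650 of all 10128 tested genes. The correlation across genes of KO 35 minus KO 27 with WT 35 minus WT 27 was 0.148. Fosb, Junb, Jund, Ier2 and Ier3 are not tested with a filter of 10 RPKM. Depth in reads is not given, so no counting error stands beside the lowest values, those of Fosb and Junb.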
